A study of Mus musculus with 36 samples.

Results

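The 9 genes described here, Dlg2, Dlg4, Dlgap1, Dlgap4, Homer1, Shank3, Gphn, Anks1b and Camk2b, encode scaffold proteins and a kinase subunit that are best known from the postsynaptic side of neuronal synapses, and they are 9 of the 52636 genes in the count table. They were matched by Ensembl identifier and had been chosen by the levels measured in these same libraries, so every difference between cell types given for them is a description without a test. Of the 9 members, 8 were among the 15330 genes that passed the filter on low counts, and Dlg2 was not. RNA was taken from cells that FACS sorted out of diaphragm, pectoralis and limb muscles of juvenile mice carrying both an S100β-GFP transgene, driven by the S100b promoter, and an NG2-dsRed transgene, driven by the promoter of Cspg4, the gene of NG2. Cells with both colours are perisynaptic Schwann cells (PSCs), the glia that cover the neuromuscular junction, and 9 PSC libraries were used beside 8 libraries of S100β-GFP+ cells (GFP alone, called GFP cells here) and 10 of NG2-dsRed+ cells (dsRed alone, called dsRed cells here), each from the cells of a single mouse. The labels do not say whether libraries of different cell types came from the same mouse, and no pairing by mouse was used in the fits. The methods of the study keep fewer GFP replicates than the table has columns, so a GFP library used here may be among the samples its authors removed, and which one was not established here. The labels give postnatal day 15 as the youngest age, and their oldest age climbs with the library number from day 21 to day 46 at library 26 and stays there, while the methods give a narrower range close to the youngest age, and ages were not used in any comparison. The RNA was amplified with SMART-Seq v4, the authors counted reads per gene, counts on genes were between 5221655 and 9592875 per library, and levels are given as CPM (counts per 1000000 after TMM scaling).

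In neurons, membrane-associated guanylate kinases of the DLG family hold receptors and potassium channels at the excitatory postsynaptic membrane, DLGAP proteins tie them to SHANK and HOMER proteins, and the kinase CaMKII, which calcium signals switch on, is among the most abundant proteins there. Gephyrin, the product of Gphn, anchors glycine and GABA-A receptors at inhibitory synapses and also carries out the last steps of molybdenum cofactor synthesis in most tissues. PSCs sense transmitter released at the neuromuscular junction and answer with calcium signals, and most of these scaffolds also have uses outside synapses.

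The labels were checked against marker genes before the members were read. PSC libraries had both sorting genes, with S100b at 255 ± 198.5 CPM (SD, n = 9) and Cspg4 at 689 ± 132 CPM. In GFP cells S100b was at 29.4 ± 10.1 CPM (SD, n = 8) and the 8 Schwann lineage markers summed to 178 ± 119 CPM, against 2440 ± 354 CPM in PSCs and 48.7 ± 15.4 CPM (SD, n = 10) in dsRed cells. The 8 myelin markers summed to 2757 ± 868 CPM in GFP cells, 2769 ± 283 CPM in PSCs and 472 ± 246 CPM in dsRed cells. GFP libraries also held much RNA of other cell types, since the 6 fibroblast markers summed to 29679 ± 7200 CPM there and to 1415 ± 684 CPM in PSCs, and the 6 macrophage markers to 1222 ± 668 CPM there and to 6.95 ± 3.04 CPM in PSCs. In dsRed libraries the 10 pericyte and smooth muscle markers summed to 11683 ± 2879 CPM with Rgs5 at 5322 ± 1545 CPM, and the fibroblast markers to 8844 ± 5165 CPM, with a fibroblast sum above the pericyte and smooth muscle sum in libraries 26, 28 and 35. In bulk libraries such as these, fewer cells of a type and less RNA per cell cannot be told apart.

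Of the GFP libraries, 14, 17 and 22 stood apart. Their 5 endothelial markers summed to 543, 2004 and 1084 CPM, against 25.1 to 100.4 CPM in the other 5, their pericyte and smooth muscle markers to 989, 1652 and 1404 CPM, against 247.5 to 857.6 CPM, and their macrophage markers to 686, 457 and 310 CPM, against 1343 to 2126 CPM. Where a call printed below for a named gene changes without these libraries, the value without them is given. The joint share of Lars2, Gm23935 and Gm15564 in a library's counts, called the 3-gene share here, also varied, with 3.64% to 36.6% in PSCs (median 17.8%), 19.5% to 39.1% in GFP cells (median 32.6%) and 12.5% to 40.0% in dsRed cells (median 30.4%).

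Markers of neurons and muscle fibres, cells in which several of these genes are known, were read next. The 14 neuronal markers summed to 3.89 to 16.8 CPM in a PSC library (median 9.15), most of it Stmn2 at 5.398 ± 3.345 CPM, with Chat at 0 and Snap25, Syt1 and Rbfox3 at 0.503, 0.155 and 0.215 CPM. dsRed cells had a higher sum of 39.3 ± 8.58 CPM, again mostly Stmn2 (34.5 ± 8.45 CPM) and with Chat and Mnx1 at 0, and GFP cells had 22.5 ± 11.1 CPM. RNA of muscle fibres was present in all 3 cell types: the 12 fibre markers summed to 766 ± 517 CPM in PSCs, 438 ± 201 CPM in GFP cells and 502 ± 187 CPM in dsRed cells, with Acta1 the most abundant. Of the 12, 2 were called higher in PSCs against GFP cells and 3 against dsRed cells, with 0 called lower in each. Of the 11 genes of the muscle side of the neuromuscular junction, Rapsn was at 0 in every library, Musk was at 6.92 ± 3.08 CPM in PSCs (log2 fold changes of 1.29, adjusted p = 0.0118, and 1.91, adjusted p = 0.000214), and most of the sum of 180 ± 44.0 CPM in PSCs was Etv5 (154 ± 43.2 CPM). Of these, 6 were tested. Against GFP cells 4 were higher and 0 lower in PSCs, where 22.9% and 24.1% of all genes tested were. Against dsRed cells 3 were higher and 1 lower, where 20.9% and 23.1% were. The same shares stand as the background of the fibre marker counts.

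Of the 8 members tested, 4 were past the threshold (edgeR's quasi-likelihood test, adjusted p under 0.05) and higher in PSCs than in GFP cells, where 22.9% of all genes tested were, and 2 were lower, where 24.1% were. Against dsRed cells 3 members were higher in PSCs, where 20.9% of all genes were, and 1 was lower, where 23.1% were. Between GFP and dsRed cells, 2 members were higher in GFP cells, where 18.1% of genes were, and 1 was lower, where 15.2% were. Of the 2, Anks1b passed the filter through its level in PSCs, and nothing is read from its call between GFP and dsRed cells. PSCs were higher than both other cell types in 3 members, Dlgap1, Anks1b and Camk2b (13.9% of all genes), and lower than both in Shank3 alone (14.4% of all genes), which was no longer so without libraries 14, 17 and 22. Dlgap1, Anks1b and Camk2b were also the 3 members whose 9 PSC libraries all lay above each of the other 18 libraries, which 3.24% of genes tested did. The comparisons of PSCs with the other cell types share the PSC libraries, they used the values that chose the members, and nothing is read from the shares, which also stand as the background of the list counts below. The median log2 fold change of the 8 members was 0.24 against GFP cells and 0.30 against dsRed cells, beside 0.04 and 0.02 over all genes tested. Without libraries 14, 17 and 22, 4 members were higher and 1 lower against GFP cells, where 3621 and 3257 of 16216 genes were.

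**Figure D1:**
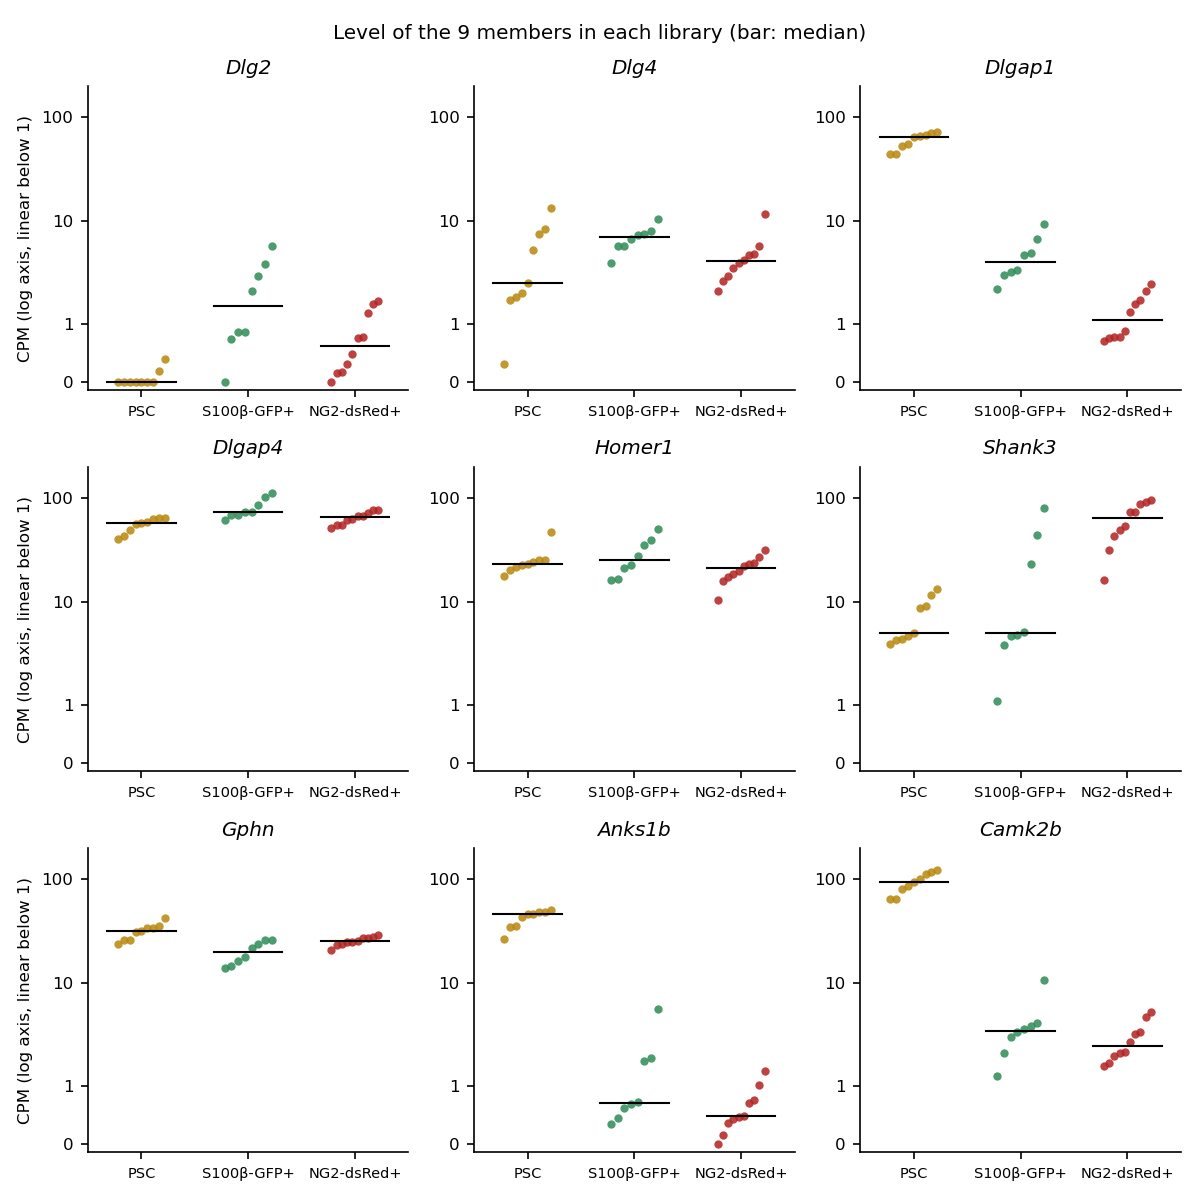
CPM of each of the 9 members in every library (1 point a library, horizontal bar the median, log axis that is linear below 1) for PSCs (9), GFP (8) and dsRed cells (10). Camk2b lies between 64.65 and 122 CPM in PSCs and at 10.7 CPM or less elsewhere, whereas Dlg4, Dlgap4, Homer1 and Gphn overlap between all 3 cell types.

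Camk2b encodes the β subunit of CaMKII, which binds actin filaments in addition to phosphorylating its targets. Its level was 64.65 to 122 CPM in PSC libraries (median 93.3), 1.25 to 10.7 CPM in GFP libraries (median 3.445) and 1.56 to 5.195 CPM in dsRed libraries (median 2.43). The PSC libraries did not overlap the others, whereas GFP and dsRed libraries overlapped, with GFP library 22 at 10.7 CPM and the next at 4.125 CPM. The log2 fold change was 4.55 (SE 0.32) against GFP cells and 5.03 (SE 0.30) against dsRed cells, and 4.95 (SE 0.28) against GFP cells without library 22. Muscle fibres also express Camk2b. In the PSC library with the highest fibre marker sum, library 18 at 1948 CPM, Camk2b was at 79.5 CPM, and in the library with the lowest, library 34 at 245 CPM, it was at 86.0 CPM. Within PSCs, log2 Camk2b and the log2 fibre sum had a Pearson r of 0.242 (Spearman's rho 0.383, n = 9, r of 0.663 without the 2 libraries farthest from the median), and within dsRed cells r was 0.669 (rho 0.673, n = 10, r of 0.383 without the 2 farthest) and within GFP cells 0.322 (rho 0.357, n = 8, r of 0.418 without the 2 farthest). Against the same sum within PSCs, Dlgap1 had r of 0.403 (rho 0.617, 0.693 without the 2 farthest) and Anks1b -0.647 (rho -0.483, -0.084 without them), all descriptions of libraries that share a scaling. The part of fibre RNA in these levels was not tested. With the 3-gene share log2 Camk2b had r of -0.607 within PSCs (rho -0.633, r of -0.942 without the 2 farthest). The part of that share in the Camk2b level was not tested.

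The isoforms of CaMKII differed in their shares between the cell types. Per length of exon sequence, Camk2b made up 62.8 ± 10.1% of the summed level of Camk2a, Camk2b, Camk2d and Camk2g in PSCs (48.9% to 78.7%), 4.44 ± 2.66% in GFP cells (2.12% to 10.7%) and 2.39 ± 0.744% in dsRed cells (1.24% to 3.75%). The γ subunit gene Camk2g was the largest part elsewhere, with 63.7 ± 7.49% in GFP cells and 69.5 ± 7.60% in dsRed cells, against 23.9 ± 12.6% in PSCs. With the longest transcript as the length Camk2d came before Camk2g in GFP cells (48.02% and 45.87%) and in PSCs (21.84% and 18.23%), and Camk2b was 59.51% in PSCs. Camk2a, the main partner of Camk2b in forebrain neurons, was at 0.780 ± 0.867 CPM in PSCs, 0.661 ± 0.727% of the family. The summed level of the 4 genes was 16.2 ± 2.03 CPM per kb in PSCs, 9.38 ± 1.60 in GFP cells and 12.9 ± 2.49 in dsRed cells, so the family total varied less between cell types than its Camk2b part. Camk2g was lower in PSCs against both, by edgeR's test with log2 fold changes of -0.64 (SE 0.25, adjusted p = 0.0392) against GFP cells and -1.25 (SE 0.24, adjusted p = 0.000102) against dsRed cells. The call against GFP cells was lost without libraries 14, 17 and 22 (-0.63), in a fit of the 2 cell types alone (-0.64), with the 3-gene share in the fit (-0.30) and without library 1, 3, 4, 12, 20, 27, 33, 34 or 36 (-0.64 to -0.51).

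Of 18 other genes of CaM kinases and of proteins that regulate them, 16 were tested. Against GFP cells 2 were higher and 6 lower in PSCs, with a median log2 fold change of -0.31 beside 0.04 over all genes, and against dsRed cells 2 were higher and 5 lower, with a median of -0.34 beside 0.02. Among those lower against GFP cells was Camk2a, -1.57 (SE 0.65, adjusted p = 0.0490), which was -0.21 without libraries 14, 17 and 22 and whose call was lost under 5 of 7 alternatives and with 20 of the libraries left out in turn. Camk2n1, which encodes an inhibitor of CaMKII, was the only gene of this list past the threshold and higher in PSCs against both, at 46.8 ± 14.5 CPM in PSCs with log2 fold changes of 0.82 (SE 0.22, adjusted p = 0.00271) and 0.66 (SE 0.20, adjusted p = 0.00915). The 3 genes lower against both were Camk2g, Camk4 and Dapk1. Dapk1, which encodes a death-associated protein kinase, was at 6.00 ± 2.65 CPM in PSCs, 140 ± 26.9 CPM in GFP cells and 14.35 ± 5.03 CPM in dsRed cells. The difference between PSCs and GFP cells in Dapk1 was a log2 fold change of -4.55 (SE 0.29, adjusted p = 1.81e-13). Camk4 was at 1.34 ± 0.944 CPM in PSCs, with log2 fold changes of -1.65 (SE 0.35, adjusted p = 0.000303) and -2.51 (SE 0.35, adjusted p = 6.66e-07).

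Dlgap1 and Dlgap4 encode guanylate kinase-associated proteins, which link DLG proteins to SHANK proteins. Dlgap1 was at 43.8 to 71.5 CPM in PSC libraries (median 64.5), 2.18 to 9.22 CPM in GFP libraries (median 3.97) and 0.709 to 2.43 CPM in dsRed libraries (median 1.095). PSC libraries did not overlap the others, and 7 of the 8 GFP libraries were above the highest dsRed library. Its log2 fold change was 3.69 (SE 0.27) against GFP cells, 5.50 (SE 0.28) against dsRed cells and 1.81 (SE 0.27) between GFP and dsRed cells, or 1.42 (SE 0.27) without libraries 14, 17 and 22. Dlgap4 was at 40.7 to 65.0 CPM in PSCs (median 57.6), 61.1 to 112.5 CPM in GFP cells (median 73.4) and 51.8 to 76.9 CPM in dsRed cells (median 65.1). Its groups overlapped, although 6 of 9 PSC libraries were below the lowest GFP library, and the log2 fold changes of PSCs were -0.54 (SE 0.13) against GFP cells, past the threshold under all 8 alternatives and with each library left out, and -0.22 (SE 0.13) against dsRed cells, not past it. Per length, Dlgap1 was 29.6 ± 4.63% of the summed level of the 5 DLGAP genes in PSCs, 2.48 ± 1.35% in GFP cells and 0.903 ± 0.434% in dsRed cells, and Dlgap4 was 58.1 ± 4.86%, 88.6 ± 5.83% and 93.7 ± 1.91%. With the longest transcript as the length the shares of Dlgap1 and Dlgap4 in PSCs were 38.1% and 52.4%.

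The paralogs of these adaptors were low. Dlgap2 and Dlgap3 did not pass the filter, and of the 9 PSC libraries library 18 alone had Dlgap2 above 1 CPM, at 19.1 CPM. Dlgap5, a mitotic spindle protein despite its name, was at 6.815 ± 3.80 CPM in PSCs, 4.60 ± 2.88 CPM in GFP cells and 1.11 ± 1.05 CPM in dsRed cells, and PSCs were higher than dsRed cells by a log2 fold change of 2.59 (SE 0.47, adjusted p = 4.31e-05).

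Dlg2 and Dlg4, the guanylate kinase-type scaffolds that bind NMDA receptors and Kv1 channels in neurons, were among the lowest members in PSCs. Dlg2 had 7 counts over the 9 PSC libraries, in 2 of them, and no count in the other 7, against 101 counts over 8 GFP libraries and 48 over 10 dsRed libraries. Its highest levels were 0.394 CPM in PSCs, 5.76 CPM in GFP cells and 1.67 CPM in dsRed cells, and every cell type had at least 1 library at 0, so the groups overlapped. GFP libraries 14, 17 and 22 had 2.12, 3.78 and 5.76 CPM of Dlg2, against 0 to 2.91 CPM in the other 5 (median 0.871). Dlg4 ran from 0.316 to 13.3 CPM in PSCs (median 2.52), from 3.88 to 10.45 CPM in GFP cells (median 6.93) and from 2.10 to 11.65 CPM in dsRed cells (median 4.05). It spread most in PSCs, where 5 of 9 libraries were below the lowest GFP library and library 23 was above the highest, and its log2 fold changes of -0.55 (SE 0.45) against GFP cells and 0.02 (SE 0.42) against dsRed cells were both not past the threshold in the main fit. With limma-voom they were -1.31, past the threshold, and -0.75, not past it, and with the 3-gene share in the fit -0.15 and 0.30, both not past it. Without PSC library 23 the value against GFP cells was -0.92 and that against dsRed cells -0.35. The latter changed sign with 7 of the libraries left out in turn. Among PSC libraries the log2 level of Dlg4 moved with the 3-gene share, with r of 0.908 (rho 0.900, n = 9, r of 0.886 without the 2 libraries farthest from the median). Library 36, with the lowest share of 3.64%, had the lowest Dlg4 level, and library 23, with the highest share of 36.6%, had the highest. The same correlation was 0.730 in GFP cells (rho 0.714, n = 8, r of 0.405 without the 2 farthest) and 0.311 in dsRed cells (rho 0.248, n = 10, r of -0.005 without the 2 farthest), and what part the share plays in the Dlg4 level was not tested.

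Dlg1 was at 38.3 ± 12.35 CPM in PSCs, Dlg3 at 10.5 ± 5.235 CPM and Dlg5 at 25.7 ± 15.1 CPM, with no count in 1 library. Per length, Dlg1 made up 42.6 ± 6.50% of the 5 DLG genes in PSCs, Dlg5 31.2 ± 13.7%, Dlg3 21.0 ± 6.03%, Dlg4 5.17 ± 7.07% and Dlg2 0.0484 ± 0.0985%. Dlg4 and Dlg2 together were a small part in the other cell types as well, with Dlg4 at 8.12 ± 1.96% and 3.29 ± 1.66% in GFP and dsRed cells and Dlg2 at 1.99 ± 1.61% and 0.460 ± 0.4105%. Dlg3 was at 8.71 ± 4.12% in GFP cells, and with the longest transcript as the length Dlg4 came before it there (11.36% and 6.80%). Dlg3 was higher in PSCs than in GFP cells by a log2 fold change of 1.71 (SE 0.31, adjusted p = 4.34e-05). Dlg1, a broadly expressed polarity scaffold, was lower in PSCs than in dsRed cells, with a log2 fold change of -0.56 (SE 0.19, adjusted p = 0.0158), and this call was lost with the 3-gene share in the fit (-0.38) and without library 2, 20 or 36 (-0.46 to -0.43).

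Homer1 encodes an adaptor whose long forms join SHANK proteins to group I metabotropic glutamate receptors and inositol trisphosphate receptors, and whose short form is induced by activity. It was at 17.8 to 47.0 CPM in PSCs (median 23.4), 16.2 to 50.0 CPM in GFP cells (median 25.1) and 10.3 to 31.7 CPM in dsRed cells (median 21.0). The groups overlapped and the log2 fold changes of PSCs were -0.18 (SE 0.23) against GFP cells and 0.27 (SE 0.22) against dsRed cells, and counts per gene do not separate its long and short forms. In PSCs library 18 was high at 47.0 CPM, with the next at 25.5 CPM. That library also had the highest fibre marker sum of the PSC libraries, and among the other 8 PSC libraries Homer1 stayed between 17.8 and 25.5 CPM while the fibre sum ran from 245 to 1172 CPM. The part of fibre RNA in the Homer1 level was not tested. GFP libraries 14, 17 and 22 had 16.2, 16.55 and 21.4 CPM, below the 22.4 to 50.0 CPM of the other 5. Without them the log2 fold change of PSCs against GFP cells was -0.44 (SE 0.23), not past the threshold. That of GFP against dsRed cells was 0.46 (SE 0.22), not past it, with all libraries. It was past it without the 3 (0.72, SE 0.23) and with limma-voom (0.53). Per length, Homer3 was the largest part of the family in PSCs (59.3 ± 7.38%), beside 37.7 ± 8.56% for Homer1 and 2.97 ± 2.26% for Homer2, and with the longest transcript as the length Homer1 was at 48.8%. Homer2 was lower in PSCs than in dsRed cells, with a log2 fold change of -1.91 (SE 0.50, adjusted p = 0.00227), and Homer3 was past the threshold only without libraries 14, 17 and 22, against GFP cells at 0.75.

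Shank3 encodes a large scaffold below the DLGAP layer, and of the 8 members tested it had the largest SD of log2 CPM within GFP cells (1.99) and within dsRed cells (0.81). Its level was 3.89 to 13.3 CPM in PSCs (median 4.95), 1.11 to 80.65 CPM in GFP cells (median 4.96) and 16.1 to 95.3 CPM in dsRed cells (median 63.8). Every PSC library was below every dsRed library, with a log2 fold change of -3.09 (SE 0.56). GFP libraries 14, 17 and 22 had 22.9, 80.65 and 44.4 CPM and the other 5 had 1.11 to 5.12 CPM, which overlaps the PSC libraries. The log2 fold change of PSCs against GFP cells was -1.52 (SE 0.56) with all libraries, -1.55 in a fit of the 2 cell types alone, -0.73 with the 3-gene share in the fit, -0.08 with limma-voom, -0.78 without library 17, -1.26 without library 22, each of these no longer past the threshold, and 0.91 (SE 0.40) without libraries 14, 17 and 22, also not past it. GFP against dsRed cells gave -1.57 (SE 0.55) with all libraries and -3.96 (SE 0.44) without these 3, and it was not past the threshold in a fit of the 2 cell types alone (-1.54) or without library 1, 3, 11 or 27 (-1.42 to -1.39).

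Shank3 moved with endothelial markers. Their sum was 1156 to 2717 CPM in dsRed libraries (median 2135), 76.0 to 509 CPM in PSC libraries (median 244) and 25.1 to 2004 CPM in GFP libraries (median 92.7), with all 5 genes counted in each cell type and Cdh5 the most abundant (921 ± 152 CPM in dsRed cells). Against dsRed cells 5 of the 5 were past the threshold of edgeR's test and lower in PSCs. Within dsRed cells log2 Shank3 and the log2 endothelial sum had r of 0.969 (rho 0.952, n = 10, r of 0.872 without the 2 libraries farthest from the median), and within PSCs r of 0.644 (rho 0.650, n = 9, r of 0.548 without the 2 farthest). The pericyte and smooth muscle sum gave r of 0.628 in dsRed cells (rho 0.430, r of -0.081 without the 2 farthest) and -0.049 in PSCs (rho 0.033, r of 0.409 without them). With the 3-gene share log2 Shank3 had r of 0.606 in PSCs (rho 0.517, 0.555 without the 2 farthest) and 0.740 in dsRed cells (rho 0.515, 0.134 without them), and with counts on genes 0.681 in dsRed cells (rho 0.527, 0.588 without them). No r with these marker sums was taken over the GFP libraries, which fall into separate sets for both measures. The part of endothelial RNA, of the share or of depth in the Shank3 level was not tested.

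**Figure D2:**
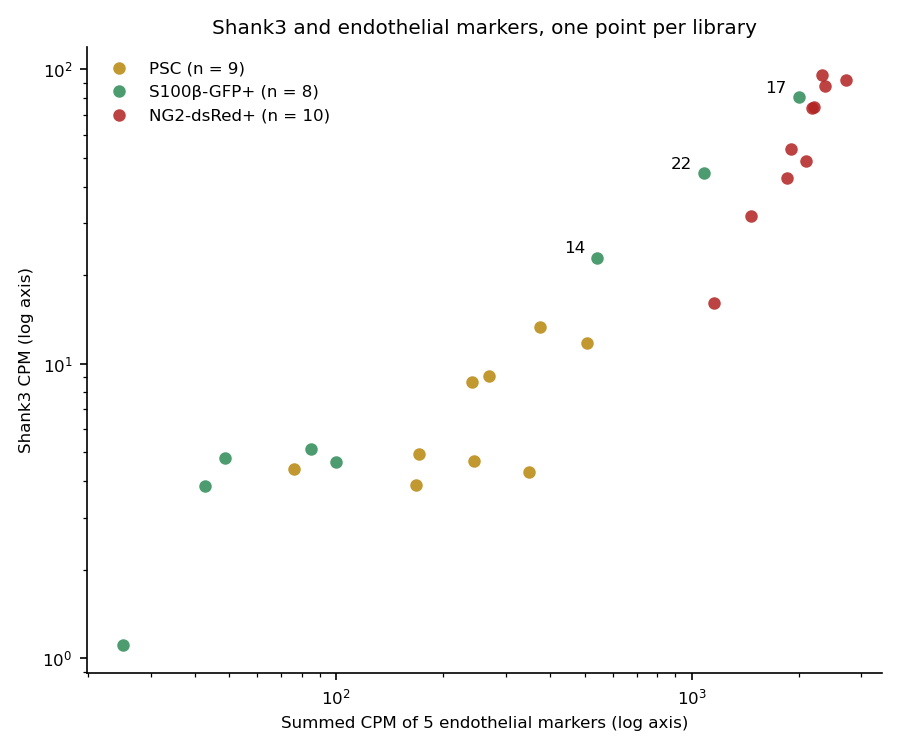
CPM of Shank3 against the summed CPM of 5 endothelial markers (Pecam1, Cdh5, Kdr, Emcn, Tie1), 1 point a library, both axes on a log scale, coloured by cell type. GFP libraries 14, 17 and 22, marked by number, lie at 543, 2004 and 1084 CPM of markers and 22.9, 80.65 and 44.4 CPM of Shank3, away from the other 5 at 100.4 CPM of markers or less.

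The 3 SHANK genes summed to 1.55 ± 0.456 CPM per kb in PSCs, 3.625 ± 2.93 in GFP cells and 7.10 ± 2.77 in dsRed cells. The sums of PSCs (0.786 to 2.14) lay below those of dsRed cells (3.03 to 10.7) and overlapped those of GFP cells (0.891 to 9.83), where Shank3 alone reached 8.78 CPM per kb in library 17. Shank3 made up 92.0 ± 12.2% of this in dsRed cells, but 51.8 ± 20.7% in PSCs, where Shank1 took 37.6 ± 26.7% and Shank2 10.6 ± 10.8%, and in GFP cells the parts were 46.0 ± 33.05%, 42.2 ± 30.0% and 11.8 ± 15.2%. Shank1 was at 6.64 ± 5.27 CPM in PSCs and 11.4 ± 9.44 CPM in GFP cells, and Shank2 at 1.39 ± 0.847 CPM and 2.83 ± 1.84 CPM. In the main fit neither was past the threshold in PSCs against either cell type. Shank1 against dsRed cells, 1.29 (SE 0.64, adjusted p = 0.105), was 0.17 with the 3-gene share in the fit, not past the threshold, and past it with limma-voom (2.39) and without dsRed library 28 (2.11) or PSC library 18 (1.54), and Shank1 against GFP cells, -0.77, with the 3-gene share in the fit (-2.12). Shank2 against GFP cells, -1.04 (SE 0.48, adjusted p = 0.0772), was past it with DESeq2 (-1.07) and without library 1 (-1.20) or 18 (-1.23). Shank1 was higher in GFP than in dsRed cells, with a log2 fold change of 2.06 (SE 0.66, adjusted p = 0.0162), a call lost without library 3 (1.70).

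Anks1b encodes an ankyrin repeat protein of the postsynaptic density that binds DLG scaffolds. It was at 26.3 to 50.0 CPM in PSCs (median 46.2), 0.348 to 5.60 CPM in GFP cells (median 0.709) and 0 to 1.40 CPM in dsRed cells (median 0.479). All PSC libraries were above all others, and GFP library 22 at 5.60 CPM stood above the next at 1.89 CPM. The log2 fold change of PSCs was 4.79 (SE 0.44) against GFP cells and 6.09 (SE 0.44) against dsRed cells, and against GFP cells it was 5.51 (SE 0.39) without library 22 and 6.19 (SE 0.42) without libraries 14, 17 and 22. The value of GFP against dsRed cells, 1.30 (SE 0.46) with all libraries, was 0.57 (SE 0.40) without library 22 and -0.07 (SE 0.43) without the 3, neither past the threshold, nor was the 1.19 without dsRed library 21. Nothing is read from these values, since Anks1b passed the filter through its level in PSCs. It had 71 counts over the GFP and 41 over the dsRed libraries. Its paralog Anks1 was expressed in all cell types, at 45.3 ± 13.5 CPM in PSCs, 34.2 ± 5.67 CPM in GFP cells and 29.9 ± 4.435 CPM in dsRed cells. Of the level of both genes per length, Anks1b was 40.0 ± 7.40% in PSCs, 2.89 ± 3.18% in GFP cells and 1.36 ± 0.953% in dsRed cells. Over the family paralogs, 9 of 11 were tested, and against GFP cells 2 were higher and 0 lower in PSCs (median log2 fold change 0.39), and against dsRed cells 2 were higher and 2 lower (median 0.22). Anks1 was the only one higher against both, by 0.40 (SE 0.16, adjusted p = 0.0381) and 0.60 (SE 0.15, adjusted p = 0.00168), and the former call was lost without libraries 14, 17 and 22 (0.46), with no filter (0.44), in a fit of the 2 cell types alone (0.39) and without library 6, 17, 20, 22, 23, 27, 31 or 33 (0.31 to 0.40).

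**Figure D3:**
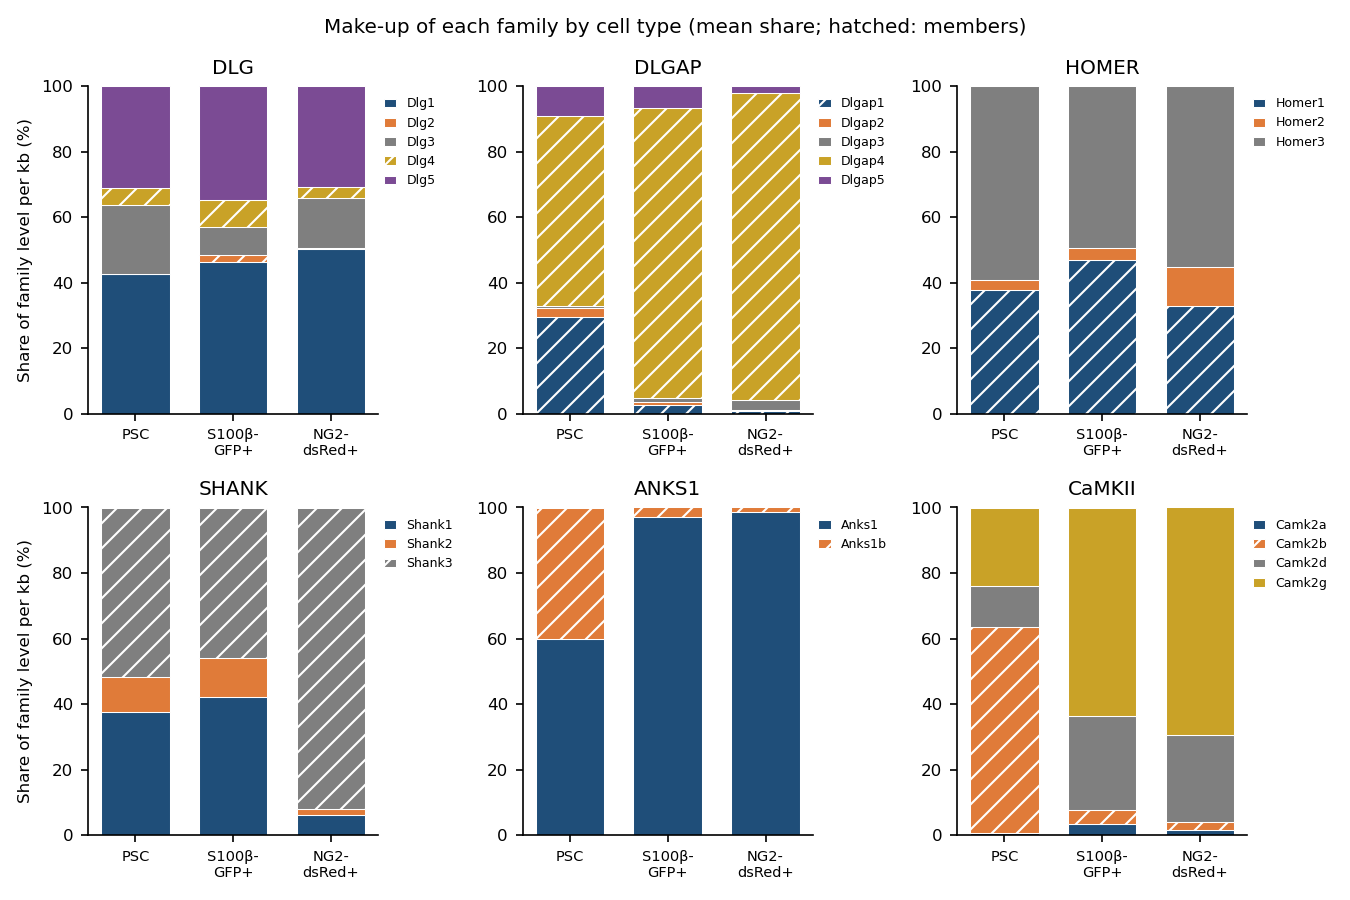
Mean share of each gene in the level per kb of exon of its family (percent, stacked, members hatched) in PSCs (9 libraries), GFP (8) and dsRed cells (10). Camk2b holds 62.8% of the CaMKII family in PSCs against 4.44% and 2.39% elsewhere, Dlgap1 29.6% of the DLGAP family against 2.48% and 0.903%, and Anks1b 40.0% of its pair against 2.89% and 1.36%.

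Gphn was at 23.8 to 42.4 CPM in PSCs (median 31.8), 13.8 to 26.1 CPM in GFP cells (median 19.7) and 20.8 to 28.7 CPM in dsRed cells (median 25.1). The groups overlapped, with 6 of 9 PSC libraries above the highest GFP library and 6 of 9 above the highest dsRed library. The log2 fold change of PSCs was 0.66 (SE 0.15) against GFP cells and 0.32 (SE 0.14) against dsRed cells, the latter not past the threshold in the main fit. It was past it under 5 of 8 alternatives (0.28 to 0.36), among them DESeq2, limma-voom and the fit without libraries 14, 17 and 22 (0.34, SE 0.14), and without library 2, 4, 11, 12, 18, 20, 28, 31, 34, 35 or 36 (0.33 to 0.42).

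Of 8 other scaffold genes of inhibitory synapses 6 were tested. In PSCs 3 were higher, where 22.9% of all genes were, and 0 lower against GFP cells (median log2 fold change 0.88, beside 0.04 over all genes), and 4 were higher, where 20.9% were, and 1 lower against dsRed cells (median 1.26, beside 0.02). The 3 higher against both were Lhfpl4, Fam196a and Fam196b. Lhfpl4, which joins GABA-A receptors to neuroligin in neurons, was at 6.40 ± 2.45 CPM in PSCs and at 1.245 ± 0.873 CPM in GFP and 1.075 ± 0.583 CPM in dsRed cells. With 62 counts over the GFP and 70 over the dsRed libraries, Lhfpl4 passed the filter largely through its level in PSCs, and its calls are descriptions. Fam196b, now named Insyn2b after the inhibitory synapse, was at 15.9 ± 8.14 CPM in PSCs, 4.24 ± 2.07 CPM in GFP cells and 0.477 ± 0.457 CPM in dsRed cells. Fam196a was at 13.0 ± 7.98 CPM in PSCs, and its calls, with log2 fold changes of 1.40 (SE 0.41) and 1.02 (SE 0.37), were lost with the 3-gene share in the fit, at 0.82 and 0.54.

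For the metabolic role of gephyrin, 8 of 10 genes of molybdenum cofactor synthesis and of the enzymes that use it were tested. Against GFP cells 2 were higher and 2 lower in PSCs (median -0.10), and against dsRed cells 2 were higher and 1 lower (median 0.19). Mocs2, which makes the molybdopterin synthase acting just before gephyrin, was at 112 ± 28.65 CPM in PSCs, 44.6 ± 6.49 CPM in GFP cells and 31.3 ± 4.96 CPM in dsRed cells, with log2 fold changes of 1.33 (SE 0.15, adjusted p = 1.47e-08) and 1.84 (SE 0.14, adjusted p = 9.16e-12). Mocos, the sulfurase that finishes the cofactor for xanthine dehydrogenase and aldehyde oxidases, was higher in PSCs against both, at 14.2 ± 6.20 CPM, but its call against GFP cells, a log2 fold change of 0.86 (SE 0.33), was lost without libraries 14, 17 and 22 (0.95), with the 3-gene share in the fit (0.47) and without library 1, 14, 20, 22, 27 or 33 (0.72 to 0.84). Xdh, the xanthine dehydrogenase gene, was lower, at 2.84 ± 2.63 CPM in PSCs against 127 ± 45.75 CPM in GFP and 20.8 ± 12.85 CPM in dsRed cells.

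The other adaptors of the excitatory postsynaptic density went in both directions. Of 34 genes 31 were tested, with 12 higher and 7 lower in PSCs against GFP cells (median log2 fold change 0.14) and 7 higher and 12 lower against dsRed cells (median -0.32). The 6 higher against both were Sipa1l1, Sipa1l2, Cnksr2, Pick1, Lin7c and Dynll2, and the 5 lower against both were Iqsec1, Iqsec2, Prr7, Abi1 and Psd3. Sipa1l1, a GTPase-activating protein for Rap that binds DLG proteins, was at 131 ± 28.7 CPM in PSCs, 21.2 ± 5.53 CPM in GFP cells and 51.5 ± 16.1 CPM in dsRed cells. Cnksr2, a Ras pathway scaffold, was at 25.2 ± 12.2 CPM in PSCs, 1.71 ± 1.25 CPM in GFP cells and 4.48 ± 4.12 CPM in dsRed cells, with log2 fold changes of 3.90 (SE 0.54, adjusted p = 6.68e-07) and 2.49 (SE 0.45, adjusted p = 4.61e-05). Pick1, a carrier of AMPA receptors, was at 13.0 ± 2.51 CPM in PSCs, 4.38 ± 1.61 CPM in GFP cells and 6.52 ± 2.02 CPM in dsRed cells. Among the lower genes, Iqsec1, an exchange factor for Arf6, was at 16.5 ± 6.50 CPM in PSCs, 65.3 ± 9.82 CPM in GFP cells and 90.7 ± 13.3 CPM in dsRed cells. The calls of Dynll2 were lost with the 3-gene share in the fit, at 0.25 and 0.19, and that of Dynll2 against GFP cells also without libraries 14, 17 and 22, at 0.71. Abi1 against dsRed cells, -0.40 (SE 0.16, adjusted p = 0.0462), was not past the threshold under 6 of 8 alternatives or without library 2, 4, 7, 9, 11, 12, 15, 18, 20, 26, 28, 30, 34, 35 or 36 (-0.39 to -0.22), and Prr7 against GFP cells, -2.01, without libraries 14, 17 and 22 (-1.36).

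Of 49 receptors and channels that bind these scaffolds, 23 passed the filter. Against GFP cells 8 were higher and 8 lower in PSCs (median log2 fold change -0.43), and against dsRed cells 9 were higher and 7 lower (median 0.58). Higher against both were Grm5, Cacng5, Kcna1, Kcna2, Kcna6 and Kcnj10. The 3 Kv1 potassium channel genes among them, whose products bind DLG proteins in neurons, were at 567 ± 160 CPM (Kcna2), 379 ± 51.9 CPM (Kcna1) and 115 ± 40.4 CPM (Kcna6) in PSCs. Kcna2 was at 36.6 ± 15.5 CPM in GFP cells and 9.73 ± 2.87 CPM in dsRed cells, log2 fold changes of 3.95 (SE 0.29, adjusted p = 2.80e-12) and 5.86 (SE 0.29, adjusted p = 1.16e-15). Kcnj10, the Kir channel of glia, was at 85.4 ± 25.7 CPM in PSCs, 8.70 ± 8.19 CPM in GFP cells and 0.643 ± 0.517 CPM in dsRed cells. Grm5, the metabotropic glutamate receptor that HOMER proteins bind, was at 5.42 ± 4.76 CPM in PSCs, 0.755 ± 1.05 CPM in GFP cells and 0.0575 ± 0.122 CPM in dsRed cells. Cacng5, a subunit of AMPA receptor complexes, was at 13.8 ± 6.52 CPM in PSCs and under 1 CPM on average in both other cell types. Grm5 had 34 counts over the GFP and 4 over the dsRed libraries, and Cacng5 had 23 and 66. Both passed the filter largely through their levels in PSCs, so their calls are descriptions. The calcium release channels Itpr1, Itpr2 and Ryr2 and the channel Trpc1 were lower in PSCs against both, with Itpr2 at 28.0 ± 8.64 CPM in PSCs against 69.8 ± 22.0 and 100.9 ± 20.7 CPM. Without libraries 14, 17 and 22 the calls of Itpr1 (-0.24) and Trpc1 (-0.88) against GFP cells were lost, and that of Itpr1, -0.43 in the main fit, also with no filter (-0.38), in a fit of the 2 cell types alone (-0.44), with limma-voom (-0.33) and without library 2, 11, 12, 14, 17, 18, 22, 23, 27, 28, 34, 35 or 36 (-0.43 to -0.29). With the 3-gene share in the fit the call of Grm5 against GFP cells, 2.86 (SE 0.83), was lost at 1.68 and that of Trpc1, -1.25, at -0.86.

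**Figure D4:**
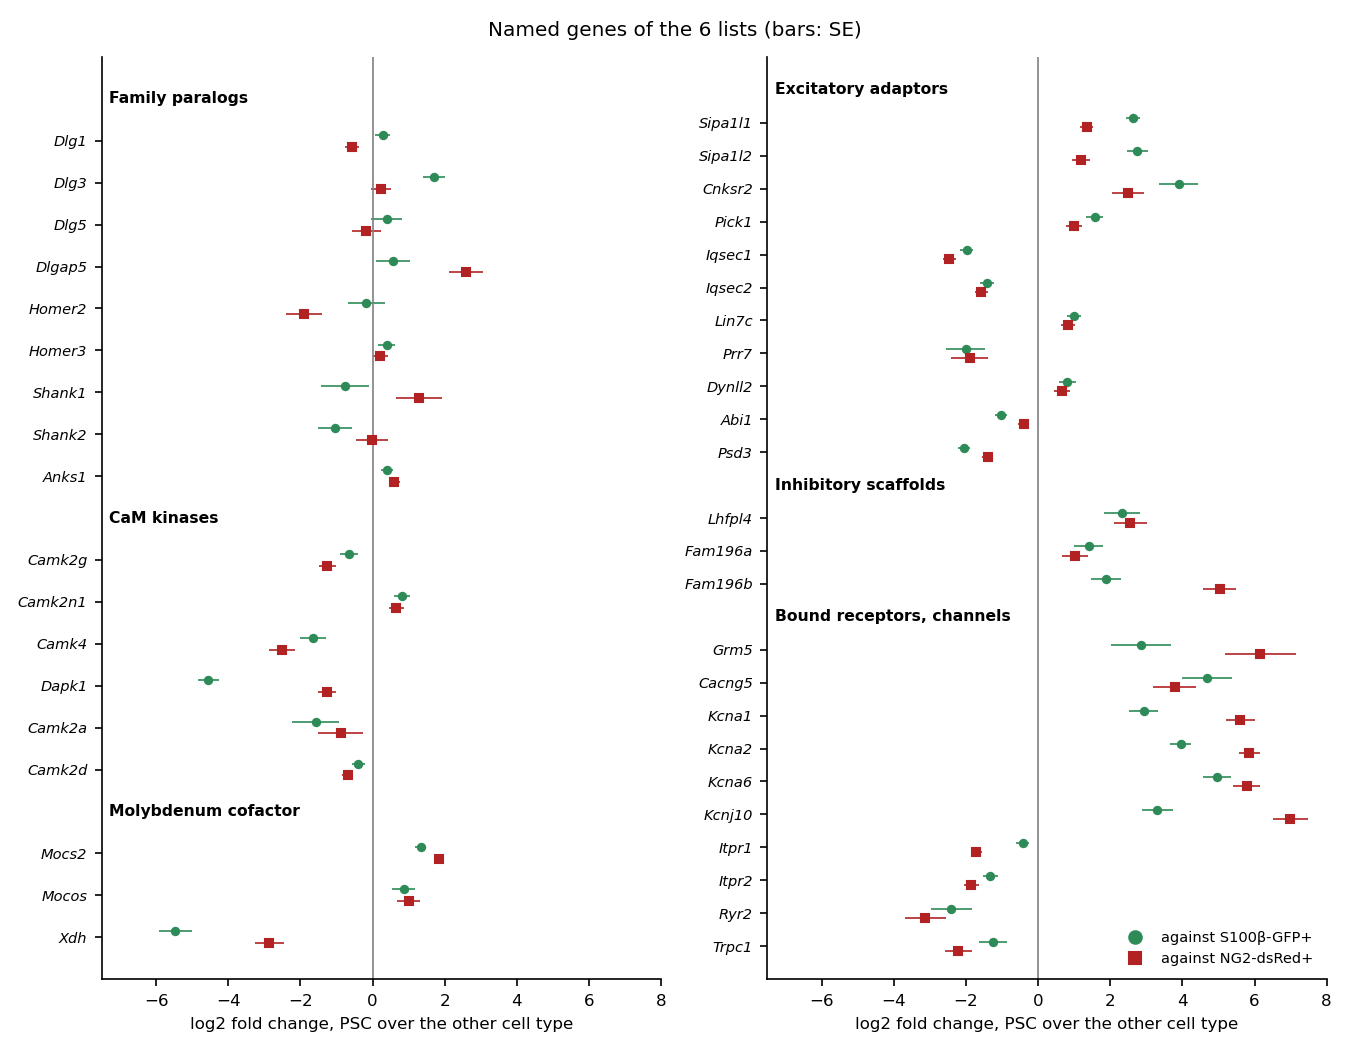
Log2 fold change of PSCs over GFP cells (circles) and over dsRed cells (squares) with SE bars, for the family paralogs and CaMKII genes that passed the filter and for the genes of the other lists past the threshold in the same direction against both. Mocs2 (1.33 and 1.84) and the Kv1 gene Kcna6 (4.97 and 5.78) lie to the right of 0, and Dapk1 (-4.55 and -1.26) and Xdh (-5.47 and -2.86) to the left.

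Levels of different members were compared per length only. In PSCs the order by mean CPM per kb of exon was Camk2b (10.25 ± 2.38), Gphn (8.405 ± 1.55), Dlgap4 (6.56 ± 1.05), Dlgap1 (3.33 ± 0.604), Anks1b (2.895 ± 0.564), Homer1 (2.12 ± 0.707), Shank3 (0.786 ± 0.389), Dlg4 (0.357 ± 0.319) and Dlg2 (0.00400 ± 0.00852). Camk2b and Gphn, Dlgap1 and Anks1b, and Anks1b and Homer1 did not differ beyond the spread of their difference over the 9 libraries. In GFP cells Dlgap4 led at 9.54 ± 2.13 CPM per kb, Gphn followed at 5.31 ± 1.32 and Homer1 at 2.39 ± 1.00, with Camk2b at 0.436 ± 0.315 and Anks1b last at 0.104 ± 0.121, and of the 8 neighbouring pairs in that order Homer1 with Shank3, Shank3 with Dlg4, Dlg4 with Camk2b, Camk2b with Dlgap1, and Dlg2 with Anks1b did not differ beyond their spread. In dsRed cells the first 3 were Dlgap4 at 7.66 ± 1.06, Gphn at 6.74 ± 0.644 and Shank3 at 6.71 ± 2.95, where neither Dlgap4 and Gphn nor Gphn and Shank3 differed beyond the spread of their difference. Camk2b thus had rank 1 of 9 in PSCs and rank 6 in each of the other cell types, while Dlgap4 and Gphn had rank 3 or better in each cell type. With the longest transcript as the length Dlgap4 had rank 2 and Gphn rank 3 in PSCs.

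The members' levels were also compared with each other within a cell type. Over the 28 pairs of the 8 members tested, the median Pearson r of log2 CPM was 0.009 in PSCs (n = 9) and 0.003 in dsRed cells (n = 10), with 4 and 2 pairs above 0.5 and 4 and 2 below -0.5, and in GFP cells (n = 8) it was -0.111, with 5 above and 3 below. Dlgap1, Anks1b and Camk2b were not all high in the same PSC libraries: within PSCs r was -0.033 for Dlgap1 and Anks1b (rho -0.033, -0.213 without the 2 libraries farthest from the median), 0.264 for Dlgap1 and Camk2b (rho 0.233, 0.490 without them) and 0.252 for Anks1b and Camk2b (rho 0.050, -0.370 without them). Within GFP cells r for these pairs was 0.684 (rho 0.452, 0.341 without the 2 farthest), 0.725 (rho 0.714, 0.679 without them) and 0.728 (rho 0.452, 0.095 without them), and within dsRed cells 0.037 (rho 0.164, -0.137 without them), -0.680 (rho -0.624, -0.547 without them) and 0.119 (rho -0.055, -0.130 without them). In PSCs the pair with the highest r, Dlg4 with Homer1, had r of 0.656 (rho 0.867, 0.684 without the 2 farthest), and the log2 level of Homer1 also had r of 0.553 with the 3-gene share (rho 0.850, 0.508 without the 2 farthest). The most negative pair in PSCs was Homer1 with Anks1b at -0.723 (rho -0.217, and 0.086 without the 2 farthest). With 1 library left out its r ran from -0.812 to -0.075, and library 18 had the highest Homer1 and the lowest Anks1b level in PSCs. In dsRed cells the highest and lowest pairs were Dlg4 with Camk2b (0.718, and 0.486 without the 2 farthest) and Gphn with Camk2b (-0.762, and -0.728). In GFP cells the lowest was Dlg4 with Gphn (-0.649, and -0.211). The highest there was Shank3 with Anks1b (0.853, rho 0.929, and 0.874 without the 2 farthest). Libraries 14, 17 and 22 are above the other 5 in both genes, and the part of that gap in this r was not tested. In these small sets of libraries, which also share a scaling, such values are descriptions. The SD of log2 CPM over PSC libraries was 0.24 for Dlgap4, 0.26 for Gphn, 0.27 for Dlgap1, 0.31 for Anks1b and 0.35 for Camk2b, 0.39 for Homer1, 0.66 for Shank3 and 1.39 for Dlg4.

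Over all 27 libraries, where the points share their cell type and depth, the genes most like each member among 15322 compared were found by Pearson r of log2 CPM. For Camk2b these were Nsg2 and Unc80, both at 0.975, and for Dlgap1 Fam184b (0.982) and Negr1 (0.973). For Anks1b they were Csmd3 (0.974) and Gm20754 (0.970), and for Shank3 the endothelial genes Pecam1 (0.968) and Aqp1 (0.967). The other members had weaker neighbours, with Pld6 (0.837) and Trove2 (0.821) for Gphn, Larp1 and Alg1 (both 0.833) for Dlg4, Pxdc1 (0.797) and Sqstm1 (0.789) for Dlgap4, and Atp6v0e (0.735) and Gm26315 (0.721) for Homer1. Unc80, which encodes a subunit of a sodium leak channel, was at 362 ± 132 CPM in PSCs, 2.56 ± 2.65 CPM in GFP cells and 1.20 ± 0.891 CPM in dsRed cells.

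By genomic span most members are long genes. In GENCODE M21 (GRCm38) the median span of the 9 members is 150.7 kb, against 20.15 kb for 15316 tested genes with a position. Dlg2, Anks1b and Dlgap1 span 1973, 1100 and 852 kb. Dlg4 has the shortest span of the members, 30.58 kb, and 61.8% of tested genes have a shorter one. Genes that share exon sequence with a member can take or add counts, and the sources used here do not say how counting treated strand. Gm15609, opposite to Shank3 and sharing 271 bp of exon, had 101 counts in PSCs and 588 in dsRed cells beside 574 and 4144 for Shank3. Gm48226, opposite to Gphn and sharing 147 bp, had 557 counts in PSCs beside 2465 for Gphn. Gm45159 and Gm45131 share 75 and 150 bp with Dlg2 and had 16 and 0 counts in PSCs, where Dlg2 had 7. They had 60 and 5 counts in GFP cells beside 101 for Dlg2, and 15 and 0 in dsRed cells beside 48. The gene 4930405A21Rik, opposite to Dlgap4 and sharing 24 bp, had 9 counts in PSCs. AC079441.1, opposite to Dlgap1 and sharing 92 bp, was not analysed here, and Dlg4, Homer1, Anks1b and Camk2b share no exon base with another gene.

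Dlgap1, Anks1b and Camk2b were each past the threshold and higher in PSCs against both, and their promoters are shown for that reason. RefSeq sequences of build GRCm38.p6 were found for 9 of 9 members, with 19 starts, and the 250 bases before each start were searched on both strands for ACAANG (a SOX-type motif), TGACGTNA (a CRE-type motif) and GGGCGG (the GC box). The SOX-type letters were in 2 of the 19 (2 members, Dlg2 and Camk2b), against 36.3% of 32851 promoters, the CRE-type letters in 1 (Homer1), against 2.52%, and the GC box in 7 (6 members), against 32.7%. The window before the only RefSeq start found for Camk2b is 78.4% G and C (median of all promoters 52.4%). It holds 1 SOX-type match and 3 GC boxes, which overlap in part. In GENCODE M21 Camk2b begins upstream of this window, at 6066362 on the minus strand, so the window lies within the annotated gene. The windows before the most upstream RefSeq starts of Dlgap1 (55.2%) and Anks1b (70.4%) hold none of the 3 motifs, although 2 of the 5 starts of Anks1b have GC boxes. Which start is used in these cells was not analysed here, and a match is only a match of letters. The windows are printed 5′ to 3′ with the matches in capitals, Dlgap1 on the plus strand at chr17:69968823-69969072, Anks1b on the plus strand at chr10:89873259-89873508 and Camk2b on the minus strand at chr11:6065749-6065998.
Dlgap1: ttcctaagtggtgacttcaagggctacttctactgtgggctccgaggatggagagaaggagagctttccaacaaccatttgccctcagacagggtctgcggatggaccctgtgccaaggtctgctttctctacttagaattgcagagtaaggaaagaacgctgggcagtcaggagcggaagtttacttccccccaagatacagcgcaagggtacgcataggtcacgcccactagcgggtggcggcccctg
Anks1b: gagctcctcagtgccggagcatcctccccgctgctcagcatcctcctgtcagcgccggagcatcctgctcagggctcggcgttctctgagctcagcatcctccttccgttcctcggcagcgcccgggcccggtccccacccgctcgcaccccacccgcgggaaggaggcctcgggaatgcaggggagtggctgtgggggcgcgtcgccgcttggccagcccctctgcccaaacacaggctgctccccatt
Camk2b: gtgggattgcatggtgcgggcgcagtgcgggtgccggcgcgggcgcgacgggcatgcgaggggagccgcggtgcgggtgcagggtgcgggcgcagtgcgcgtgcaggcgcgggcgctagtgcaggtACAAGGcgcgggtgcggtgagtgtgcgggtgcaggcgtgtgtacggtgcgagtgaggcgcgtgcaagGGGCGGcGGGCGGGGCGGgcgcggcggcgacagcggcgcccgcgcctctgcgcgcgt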

How the data were processed

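RNA of sorted PSCs, S100β-GFP+ cells and NG2-dsRed+ cells was measured by RNA-seq. The authors used HISAT2 for alignment to GRCm38 and HTSeq for counting, and the deposited values are whole-number counts per gene without normalization. The sources used here give neither versions nor the use of strand. The library number joined columns to 27 of the 36 labelled samples, and the other 9 were not used here. No pair of columns was identical, and each of 109 pairs within a cell type differed beyond counting error, with a chi-square of at least 5.68 per degree of freedom. Symbols and lengths came from GENCODE M21, which has 99.72% of the identifiers, and older symbols of list genes from RefSeq GRCm38.p6.

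The fit used edgeR 4.0.16 in R 4.3.3 with TMM, filterByExpr (minimum count 10), a quasi-likelihood fit of the 3 cell types together and Benjamini-Hochberg adjustment over 15330 genes at 0.05. An SE is the absolute log2 fold change over the root of F. Log2 CPM used a prior count of 2. The steps were tested on simulated counts. Alternatives were DESeq2 1.42.0, its size factors in edgeR, no filter, only the compared cell types, limma-voom (limma 3.58.1) with quality weights, the 3-gene share as a term, fits without GFP library 22 or libraries 14, 17 and 22, each library left out in turn, the longest transcript as length and a prior count of 0.5. The family shares with the longest transcript were added after seeing the data.

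The members and the lists were chosen with earlier results of these data known. Of the planned lists, 3 genes are not reported here and were left out of all list counts and medians. Named are the 9 members, their paralogs, list genes past the threshold in the same direction against both other cell types, the 2 genes most like each member, the most abundant gene and markers at 0 of each marker list, and overlapping genes. Outside the rule stand Camk2a, Camk2d, S100b, Cspg4, Musk, Snap25, Syt1 and Rbfox3, chosen after their values were seen. At these depths a gene at 1 CPM rests on a few counts.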

Additional observations from a re-analysis of the deposited data

Results flagged for a closer look

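Of 93 sets of libraries of a cell type (9 members, 11 paralogs and 11 marker sums in each of 3 cell types), 14 had a library farther from the rest than Dixon's 95% value allows. That value flags about 1 in 20 sets only where values are spread normally, which was not checked for these CPM, some of them near 0. Each flagged library was the highest of its set, and nothing is read from the number flagged. Among the members these were Dlg2 in PSC library 4 (0.394 CPM, next 0.191), Dlg4 in dsRed library 7 (11.65 CPM, next 5.695), Homer1 in PSC library 18 (47.0 CPM, next 25.5), Anks1b in GFP library 22 (5.60 CPM, next 1.89) and Camk2b in GFP library 22 (10.7 CPM, next 4.125).

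Among the paralogs, PSC library 18 was high in Dlgap2 (19.1 CPM, next 0.519) and Shank2 (3.15 CPM, next 1.815), GFP library 22 in Dlgap2 (3.29 CPM, next 1.18), PSC library 31 in Dlgap3 (1.14 CPM), PSC library 36 in Homer2 (6.53 CPM), dsRed library 28 in Homer2 (22.7 CPM) and Shank1 (12.5 CPM), and dsRed library 13 in Dlg5 (71.5 CPM). Myelin markers summed to 3497 CPM in PSC library 34, where the next library had 2783 CPM. PSC library 18 and GFP library 22 each appear 3 times, and the cause was not tested.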

How the results depend on the processing

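Against both other cell types, PSCs were higher and past the threshold in Dlgap1, Anks1b and Camk2b under each of the 8 other fits, and with each library left out. These fits reuse the libraries whose levels chose the members, so they describe the differences and do not test them. Leaving out 1 library, these differences from GFP cells on the log2 scale ran from 3.58 to 3.91, from 4.64 to 5.51 (without GFP library 22) and from 4.44 to 4.95. Shank3 in PSCs against GFP cells, -1.52, changed sign to 0.91 without libraries 14, 17 and 22, and was -0.08 with limma-voom, -0.73 with the 3-gene share as a term, and -0.78 without library 17, each not past the threshold. The Anks1b value of GFP against dsRed cells, 1.30, changed sign to -0.07 without these 3 libraries and was 0.65 with limma-voom and 0.57 without library 22, none of them past the threshold. Nothing is read from this Anks1b comparison, since the gene passed the filter through its level in PSCs. Gphn against dsRed cells was past the threshold under 5 of 8 alternatives (0.28 to 0.36).

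Members past the threshold were 6, 4 and 3 in PSCs against GFP, PSCs against dsRed and GFP against dsRed cells, and 5 in the last with limma-voom, where all genes past it rose from 5099 to 7026 of 15330. With no filter, 44705 genes were tested, and for PSCs against GFP cells 7 members and 16556 genes (7198 with it) were past the threshold, 3907 higher and 12649 lower (3511 and 3687 with it). Between GFP and dsRed cells these were 10586 genes, 8194 higher and 2392 lower (2771 and 2328 with it). Leaving out 1 library gave 5 to 6, 4 to 5 and 2 to 4 members. The order of the members per length in PSCs with the longest transcript put Dlgap4 before Gphn (11.4 and 8.83 CPM per kb). The cause of these changes was not tested. Dlg2, with 7 counts in PSCs, was not tested in the main fit.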

Other observations

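Melanocyte markers (6 genes) summed to 106 ± 51.2 CPM in PSCs, 36.8 ± 8.89 CPM in GFP cells and 12.7 ± 2.52 CPM in dsRed cells, with Dct leading in PSCs at 61.0 ± 46.3 CPM. The 5 markers of satellite cells and myoblasts summed to 32.55 ± 12.9 CPM in PSCs, 25.3 ± 19.6 CPM in GFP cells and 34.9 ± 12.7 CPM in dsRed cells, most of it Chodl. Camk2b moved with the 3-gene share in PSCs, with r of -0.607 (rho -0.633, n = 9, r of -0.942 without the 2 libraries farthest from the median), and the part of that share in the level was not tested.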
